A study of Mus musculus with 8 samples.

Results

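The olfactory cyclic nucleotide-gated (CNG) channel was represented by 3 genes, Cnga2, Cnga4 and Cngb1, out of 19938 genes that had a transcript cluster of their own on the array. A transcript cluster is the single value that the array gives for the exons of a gene. Members were all clusters annotated with 1 of these symbols alone, which gave 1 cluster for Cnga2, 1 for Cnga4 and 4 for Cngb1, or 6 of 23410 clusters tested. Olfactory mucosae were taken at postnatal day 26 from 4 OmpCre:Lhx2(fl/fl) mice, the knockouts, and from 4 littermate controls, all on a mixed 129 x C57BL/6J background. Of the controls, 3 were OmpCre:Lhx2(fl/+) and 1, control replicate 1, was Lhx2(fl/+) without Cre, so every mouse carried at least 1 floxed allele of Lhx2, a LIM homeodomain transcription factor. Cre was inserted into the Omp locus, so that in the epithelium it is made by mature olfactory sensory neurons (OSNs), and the study states that it recombines Lhx2 in only a fraction of them. The study asked whether receptor mRNAs still depend on Lhx2 once OSNs are mature. Here the question was whether the mRNAs of the 3 channel subunits changed, and whether they changed alike.

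The olfactory CNG channel opens when odorant receptors, acting through a G protein and adenylyl cyclase, raise cAMP in the cilia of an OSN. Calcium and sodium enter through it, and calcium then opens a chloride channel that adds to the depolarization and binds calmodulin, which closes the CNG channel again. Cnga2 is the principal subunit and forms channels by itself in heterologous cells. Cnga4 and Cngb1 are modulatory subunits that do not form functional cAMP-gated channels alone, but raise the sensitivity of the channel to cAMP and speed its closure by calcium and calmodulin. Cngb1 also takes part in bringing the channel to the cilium. The Cngb1 gene gives a long form in rod photoreceptors and a shorter one in OSNs.

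The 250 bases before the RefSeq start of each gene (build GRCm38.p6) are shown because Lhx2 is a homeodomain protein and the subunits were compared after its deletion. Capitals mark TAAT on either strand, the core that many homeodomain proteins bind. The windows are chrX:71991599-71991848 on the plus strand for Cnga2, chr7:105404318-105404567 on the plus strand for Cnga4 and chr8:95306586-95306835 on the minus strand for Cngb1.
Cnga2: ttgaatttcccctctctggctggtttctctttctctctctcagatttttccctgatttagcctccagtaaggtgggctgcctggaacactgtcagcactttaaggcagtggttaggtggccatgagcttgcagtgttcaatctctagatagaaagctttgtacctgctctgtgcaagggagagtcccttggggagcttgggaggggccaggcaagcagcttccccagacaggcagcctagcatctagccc
Cnga4: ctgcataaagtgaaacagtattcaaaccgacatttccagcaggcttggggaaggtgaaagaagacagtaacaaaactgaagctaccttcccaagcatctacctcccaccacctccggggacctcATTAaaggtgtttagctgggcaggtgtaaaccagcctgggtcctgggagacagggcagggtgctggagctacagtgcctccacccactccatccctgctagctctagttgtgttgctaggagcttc
Cngb1: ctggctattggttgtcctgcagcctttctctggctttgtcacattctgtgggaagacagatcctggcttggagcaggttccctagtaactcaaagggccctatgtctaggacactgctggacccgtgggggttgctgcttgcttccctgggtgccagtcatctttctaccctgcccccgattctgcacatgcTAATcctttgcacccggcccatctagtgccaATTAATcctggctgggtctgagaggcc
The Cnga2 window held no TAAT, the Cnga4 window held 1, at 126 bases before the start, and the Cngb1 window held 3, at 58, 27 and 25 bases before the start, the last pair overlapping. TAAT was present in 54.9% of 32817 promoter windows of this length, so its presence sets none of the 3 genes apart. TAATTA, present in 4.85% of windows on either strand, was in none of the 3. The Cnga4 window belongs to a start that lies inside the RefSeq gene model (105400024 to 105408775), and the Cngb1 window lies at the 5′ end of the whole model, so neither is shown to be the start used in OSNs.

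Lhx2 mRNA was measured first as a check of the labels. Its values were 12.03, 11.99, 12.17 and 12.16 in knockout replicates 1 to 4, against 12.39, 12.33, 12.29 and 12.33 in control replicates 1 to 4. Every knockout lay below every control, as was so for 7.83% of all clusters. The change was -0.25 ± 0.06 (log2 change ± SE; limma, adjusted p = 0.0383). Only the first exons are floxed, and which exons the cluster covers was not examined. That call was lost after array median centring (-0.19, adjusted p = 0.117), when all clusters of the table were tested (adjusted p = 0.0788) and without any mouse other than knockout replicate 3 (adjusted p = 0.0566 to 0.130). Centred on a list of mature OSN mRNAs that itself fell, Lhx2 turned to 0.20 and was called higher (adjusted p = 0.0126). That centring led to 21250 of 23410 tested clusters being called higher, with a median change of 0.50 over all clusters.

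Cnga2, Cnga4 and the brightest of 4 Cngb1 clusters were lower in knockouts, but not to the same degree. The other Cngb1 clusters had log2 changes of 0.05, 0.13 and 0.28 and were not called. Cnga4 fell to 24.6% of the control level, while Cnga2 stood at 71.4% and Cngb1, by its brightest cluster, at 68.8%. In limma over all 23410 clusters, each of these 3 clusters passed an adjusted p of 0.05. Of all clusters, 8.39% were called, 6.29% lower (1473 clusters) and 2.1% higher (492 clusters). In 7.83% of all clusters every knockout lay below every control, as it did for each of these 3. In whole mucosa, fewer mature OSNs and less of an mRNA per neuron cannot be told apart.

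Cnga2, the principal subunit (cluster 10600057, chromosome X), had values of 12.66, 12.65, 12.56 and 12.66 in knockout replicates 1 to 4, against 13.11, 13.13, 13.12 and 13.11 in control replicates 1 to 4. The groups did not overlap, and the values were close together (SD 0.047 in knockouts and 0.0076 in controls). The change was -0.49 ± 0.05 (limma, adjusted p = 0.000172), with a 95% interval of 65.7% to 77.5% of the control level. The 16 knockout and control pairs differed by -0.57 to -0.45, so that Cnga2 fell by nearly the same amount whichever mice were compared.

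Cnga4, a modulatory subunit (cluster 10555925, chromosome 7), had values of 10.10, 10.17, 9.60 and 9.99 in knockout replicates 1 to 4, against 11.93, 12.04, 11.94 and 12.05 in control replicates 1 to 4. The highest knockout lay 1.76 below the lowest control. The change was -2.02 ± 0.12 (limma, adjusted p = 3.12e-06), or 4.07 times lower, with a 95% interval of 20.6% to 29.4% of the control level. Only 42 of the 23410 clusters had a larger decrease, and 40 of those were annotated with an odorant receptor or trace amine-associated receptor. Among 20741 clusters with 1 symbol outside these receptor families, Cnga4 ranked 3, behind Rgs7, a regulator of G protein signalling, and Ifit1, an interferon-induced gene (both named after their values were seen). Cngb1 ranked 201 and Cnga2 ranked 247 in the same order. The 499 such clusters called lower had a median change of -0.46, close to the changes of Cnga2 and Cngb1.

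Cngb1, the beta subunit (chromosome 8), was the only member with several clusters. Its brightest cluster, 10580829, had values of 11.14, 11.10, 10.98 and 11.11 in knockout replicates 1 to 4, against 11.71, 11.72, 11.42 and 11.62 in control replicates 1 to 4. The groups did not overlap, although control replicate 3 lay below the other controls. The change was -0.54 ± 0.08 (limma, adjusted p = 0.00123), with a 95% interval of 61.0% to 77.7% of the control level.

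None of the other Cngb1 clusters was called in either direction on the deposited scale. Cluster 10580852 had values of 8.995, 8.78, 9.09 and 9.01 in knockout replicates 1 to 4, against 8.78, 8.73, 8.92 and 9.23 in control replicates 1 to 4. Cluster 10580854 had 7.94, 7.65, 8.02 and 7.85 in the knockouts, against 7.71, 7.59, 7.66 and 7.99 in the controls. In both clusters the groups overlapped, and the changes were 0.05 ± 0.11 (limma, adjusted p = 0.859) and 0.13 ± 0.11 (adjusted p = 0.599). The dimmest cluster, 10580850, had 6.45, 6.62, 6.59 and 6.82 in the knockouts, against 6.29, 6.36, 6.33 and 6.39 in the controls. Here every knockout lay above every control, as was so for 6.42% of all clusters, and the change of 0.28 ± 0.08 missed the threshold (limma, adjusted p = 0.0672). It passed after array median centring (adjusted p = 0.0328), with the title series as a block (0.0292), with array weights (0.0211) and without knockout replicate 1 (0.0297). Centred on the mature OSN list, all 3 were called higher, at 0.51 for 10580852 (adjusted p = 0.00144), 0.58 for 10580854 (0.000425) and 0.73 for 10580850 (5.46e-05). In that setting 21250 of the 23410 tested clusters were called higher, and the median change of all clusters was 0.50. All 4 clusters are annotated to a shared Cngb1 transcript, 10580829 alone to an additional transcript model and 10580854 alone to a further set of transcripts. The annotation used does not list the exons of each cluster, so the clusters were not assigned to the rod or the olfactory form. The mean of the 4 clusters changed by -0.021 (limma, adjusted p = 0.917), and results named Cngb1 below are those of cluster 10580829.

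**Figure D1:**
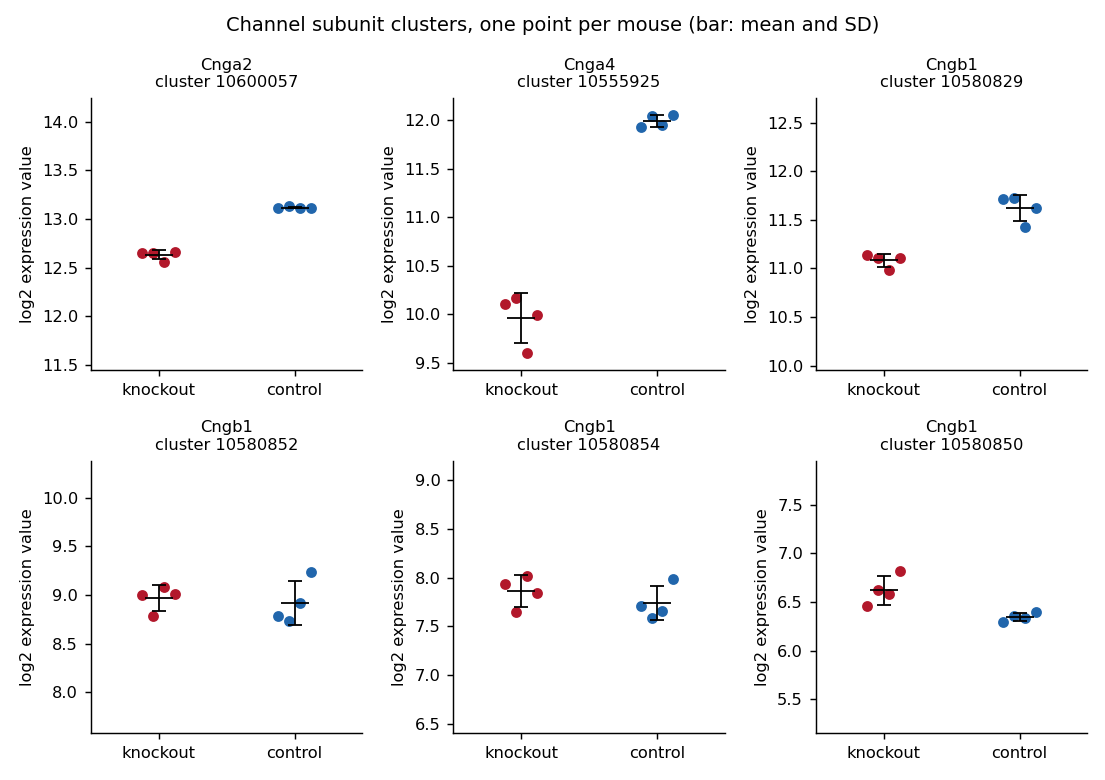
Log2 expression value (y axis) of each channel subunit cluster in 4 knockouts (red, left) and 4 controls (blue, right), 1 point per mouse with the group mean and SD; all panels span the same log2 range but start at different values. Cnga4 lies between 9.60 and 10.17 in knockouts, against 11.93 to 12.05 in controls, and of the 4 Cngb1 clusters the brightest alone is lower in knockouts.

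The same mouse had the lowest value of each subunit. Knockout replicate 3 was the lowest of all 8 arrays for Cnga2 (12.56), Cnga4 (9.60) and Cngb1 (10.98), and also for Omp (12.37). Its Lhx2 value (12.17) was the highest among the knockouts. The median over all tested clusters was also lowest on the array of knockout replicate 3, at 8.441, against 8.469 for knockout replicate 4, the next lowest. How far its low subunit values follow the level of the whole array was not tested. Without this mouse the change was -0.46 for Cnga2, -1.90 for Cnga4 and -0.51 for Cngb1, and each was still called (limma, adjusted p = 0.000711, 4.15e-06 and 0.00452).

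Mouse numbers in the sample titles begin with 5, 7 or 9, and these title series were examined as possible batches, each of which held both groups. Within title series 5, 7 and 9 the difference between knockouts and controls was -1.85, -2.34 and -2.06 for Cnga4. It was -0.47, -0.55 and -0.45 for Cnga2 and -0.60, -0.44 and -0.52 for Cngb1. Series 7 and 9 held 1 mouse of each group, so these values have no error. For Cnga2, Cnga4 and Cngb1 every knockout lay below every control, so each series had to show lower knockouts. The shared sign therefore adds no support. Against the 3 controls that carried Cre, the differences were -0.49 for Cnga2, -2.04 for Cnga4 and -0.51 for Cngb1, close to those against all 4 controls.

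The ratio of Cnga4 to its partners was therefore lower in knockouts, while that of Cngb1 to Cnga2 was within the spread between mice. Ratios were taken on each array as the difference of 2 log2 values, which cancels any scaling of the whole array. It does not cancel an effect that depends on brightness, and Cnga2 was brighter in controls than 99.2% of clusters. Of 184 other clusters at least as bright in controls, 7 were called lower in limma, with Omp (-0.84) the largest decrease. Whether signals this bright understate a decrease was not tested. Since different probes differ in brightness, a ratio was compared between groups and not read as a stoichiometry. Cnga4 minus Cnga2 was -2.55, -2.47, -2.96 and -2.67 in knockout replicates 1 to 4, against -1.18, -1.09, -1.17 and -1.06 in control replicates 1 to 4. The groups were far apart, and the difference of -1.54 means that the ratio of Cnga4 to Cnga2 was 34.4% of that in controls. Cnga4 minus Cngb1 was -1.03, -0.93, -1.38 and -1.12 in the knockouts, against 0.22, 0.31, 0.52 and 0.43 in the controls. This difference was -1.49, or 35.7% of the control ratio. For each, an exact two-sided permutation test over 70 assignments gave p = 0.0286, the smallest it allows, and p = 0.0571 after adjustment over 6 comparisons, so neither passed by that test. A pass from that smallest p depends on how many of the 6 comparisons reach it, so the test cannot decide either alone. In limma on the ratios across all clusters, an alternative added after the data were seen, both passed (adjusted p = 1.10e-05 for Cnga4 minus Cnga2, with a 95% interval of -1.76 to -1.31, and 8.45e-06 for Cnga4 minus Cngb1, with -1.73 to -1.24).

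Cngb1 minus Cnga2 was -1.52, -1.55, -1.58 and -1.56 in the knockouts, against -1.405, -1.41, -1.69 and -1.49 in the controls. All 4 knockouts lay inside the range of the controls. The difference was -0.052 (exact permutation p = 0.429, adjusted p = 0.429), and its 95% interval in limma was -0.22 to 0.11. Without control replicate 3 it was -0.12, at exact permutation p = 0.0286 and adjusted p = 0.0343. The adjusted p of Cnga4 minus Cnga2 (-1.55) and of Cnga4 minus Cngb1 (-1.44) was 0.0343 without that mouse as well. Their exact permutation p stayed at 0.0286, and the adjusted p was lower because more comparisons reached that value. With the mean of the 4 Cngb1 clusters in place of the brightest, Cngb1 minus Cnga2 was 0.47 (exact permutation p = 0.0286, adjusted p = 0.0343), so the likeness of Cngb1 and Cnga2 holds for cluster 10580829.

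**Figure D2:**
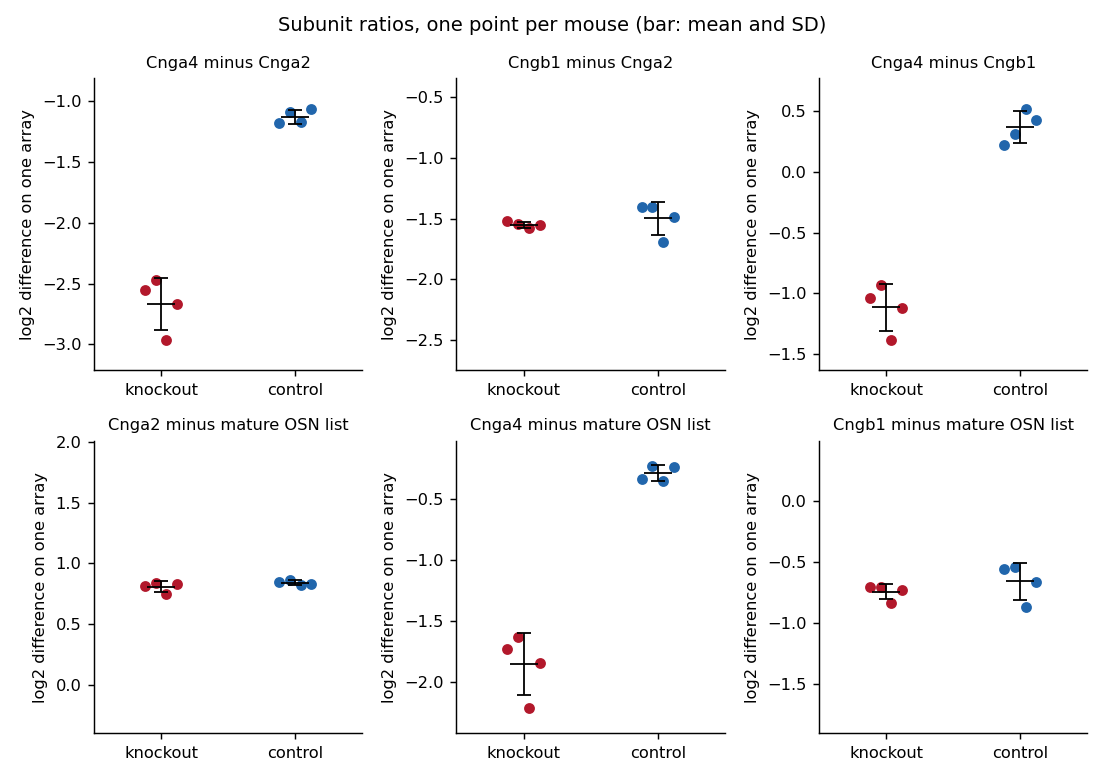
Difference of 2 log2 values on the same array (y axis; 1 point per mouse, with group mean and SD) in 4 knockouts (red, left) and 4 controls (blue, right), for the 3 subunit pairs (top) and for each subunit minus the mean of 14 mature OSN mRNAs (bottom). The 3 panels with Cnga4 on top of the ratio separate the groups, with differences of -1.54, -1.49 and -1.57, and in the other 3 the groups overlap.

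The study rescales its comparisons to mature OSN mRNAs, and the subunits were set against a list of such mRNAs. The mean of 14 mRNAs of mature OSNs, which held no channel subunit and not Omp, was 11.82 ± 0.01 in knockouts and 12.28 ± 0.02 in controls (SD, n = 4 each), a change of -0.45 or 27.0% less. Of these 14, 11 are transduction genes, and the list is not the longer one of the study. For that longer list the study reports a smaller average decrease in these mice. Values relative to the 14 mRNAs are therefore not values on the study's rescaled data. Relative to this list, Cnga2 had a difference of -0.032 (exact permutation p = 0.229, adjusted p = 0.343; 95% interval in limma -0.15 to 0.088) and Cngb1 of -0.085 (exact permutation p = 0.286, adjusted p = 0.343; -0.27 to 0.099). Cnga4 differed by -1.57 relative to the list, with all 4 knockouts below all 4 controls (exact permutation p = 0.0286, adjusted p = 0.0571; limma on the ratios, adjusted p = 2.17e-05). Relative to the median of the list in place of its mean, Cnga2 was at 0.12 and Cngb1 at 0.065. Omp, whose locus carries the Cre insertion, was 12.88, 12.80, 12.37 and 12.43 in knockout replicates 1 to 4, against 13.78 in control replicate 1, which had no Cre, and 13.56, 13.22 and 13.27 in control replicates 2 to 4. Its change was -0.84 ± 0.15 (limma, adjusted p = 0.00568), a call that the methods' t-test did not make (adjusted p = 0.0526).

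Other genes of the transduction cascade had smaller changes than Cnga4. Of 19 measured genes of a list of 20, 10 were called lower and none higher (limma; at an unadjusted p under 0.05, 11 lower and 2 higher, and by the methods' t-test after adjustment, 11 and 0). The list median was -0.26, against 0.048 over all clusters, of which 6.29% were called lower and 2.1% higher. The methods' t-test called 1266 of the 23410 clusters lower and 438 higher after adjustment. The share of all clusters at an unadjusted p under 0.05 was not counted. Upstream of the channel, Gng13, a G protein gamma subunit, changed by -0.999 ± 0.11 and Adcy3, the adenylyl cyclase that makes the cAMP which opens the channel, by -0.98 ± 0.12 (limma, adjusted p = 0.000181 and 0.000385). Adcy3 was 11.86, 11.72, 11.395 and 11.47 in knockout replicates 1 to 4, against 12.73, 12.75, 12.40 and 12.49 in control replicates 1 to 4. The groups did not overlap, and 7.83% of all clusters had every knockout below every control in this way. Gnal, the olfactory G protein alpha subunit, changed by only -0.21 ± 0.06 (limma, adjusted p = 0.0473), and Ric8b, which assists it, by -0.53 ± 0.06. The Gnal call was lost after array median centring (-0.15, adjusted p = 0.138), over all clusters of the table (0.0868) and without any 1 mouse (0.0716 to 0.150). The G protein beta subunit Gnb1 was at -0.04 ± 0.05 and was not called.

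Genes that act with or after the channel, and the receptor-transporting proteins, changed less than Gng13 and Adcy3. Ano2, the calcium-activated chloride channel, fell by 0.37 ± 0.06, Slc24a4, the potassium-dependent sodium and calcium exchanger of OSN cilia, by 0.31 ± 0.06, and Pde1c, a calmodulin-dependent phosphodiesterase that degrades cAMP, by 0.50 ± 0.08 on the log2 scale. Stoml3, a stomatin-like protein of OSN cilia, fell by 0.38 ± 0.06, and the receptor-transporting proteins Rtp1 and Rtp2 by 0.33 ± 0.07 and 0.42 ± 0.06. Without control replicate 1, Rtp1 was not called (adjusted p = 0.0517). Calmodulin, which binds the channel, was represented by Calm2 (-0.10 ± 0.05) and Calm3 (-0.26 ± 0.10), neither of which was called (limma, adjusted p = 0.361 and 0.170). Calm3 was called lower when title series was a block (adjusted p = 0.0456) and with array weights (-0.36, adjusted p = 0.0235). The 9 members that were not called ran from -0.26 for Calm3 to 0.18 for Best2, a bestrophin. The 95% interval of Cnga4 (-2.28 to -1.77) lay below that of every member of the list, of which Gng13 (-1.25 to -0.75) and Adcy3 (-1.25 to -0.71) had the lowest. Differences of Cnga4 from single members of this list were not tested.

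**Figure D3:**
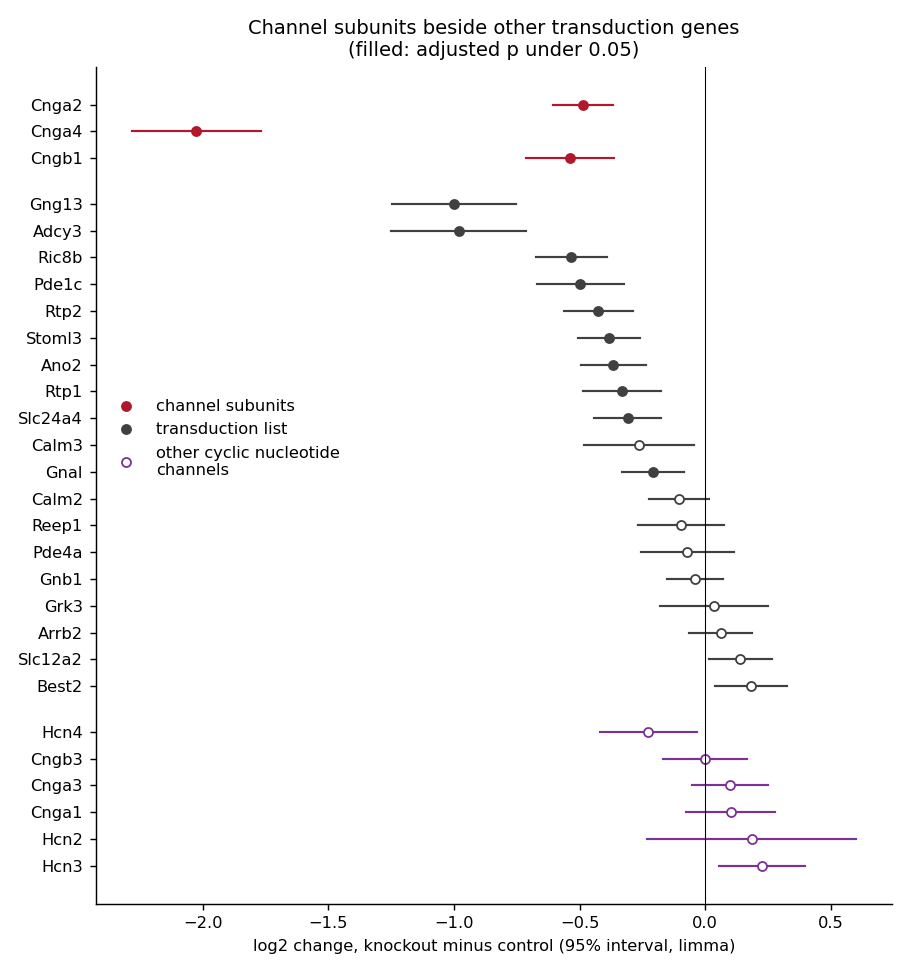
Log2 change, knockout minus control (x axis), with its 95% interval from limma, for the 3 channel subunits (red, Cngb1 by its brightest cluster), 19 transduction genes (grey) and 6 other CNG or hyperpolarization-activated channel genes (purple). Filled points passed an adjusted p of 0.05. Cnga4 at -2.02 stands left of all others, Gng13 and Adcy3 follow at -0.999 and -0.98, and Cnga2 and Cngb1 lie near Ric8b and Pde1c.

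None of 6 other measured genes of the channel family was called in limma or by the methods' t-test, and at an unadjusted p under 0.05 in limma 1 was lower and 1 higher. Cnga1, the rod alpha subunit, and Cngb3, the cone beta subunit, had dim signals of 4.88 ± 0.14 and 5.20 ± 0.14 in knockouts and 4.78 ± 0.08 and 5.20 ± 0.04 in controls (SD, n = 4 each). Cnga3, the cone alpha subunit that is also used by guanylyl cyclase D neurons of the olfactory epithelium, ran from 6.49 to 6.62 in knockouts, against 6.32 to 6.54 in controls. The hyperpolarization-activated channels Hcn2, Hcn3 and Hcn4 had changes of 0.18 ± 0.19, 0.23 ± 0.08 and -0.23 ± 0.09 (limma, adjusted p = 0.672, 0.131 and 0.186), of which Hcn3 was called higher when title series was a block (adjusted p = 0.0350). Over the 6 genes the median change was 0.0996, against 0.048 over all clusters, of which 8.39% were called in limma. The methods' t-test called 1704 of 23410 clusters after adjustment, and the share at an unadjusted p under 0.05 was not counted.

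Genes of transport into cilia, the compartment in which the channel works, were mostly not called. Of 13 measured genes of a list of 16, 2 were called lower and none higher (limma; 3 and 0 at an unadjusted p under 0.05, and the same counts by the methods' t-test), with a list median of -0.069. Among all clusters, 6.29% were called lower and 2.1% higher in limma. The methods' t-test called 1266 of 23410 lower and 438 higher after adjustment, and the share at an unadjusted p under 0.05 was not counted. Both genes called here were subunits of the BBSome, a coat complex of ciliary membrane traffic. Ttc8 fell by 0.56 ± 0.06 on the log2 scale (limma, adjusted p = 0.000158) and Bbs1 by 0.28 ± 0.07 (adjusted p = 0.0277). The Bbs1 call was lost after array median centring (-0.22, adjusted p = 0.0553), over all clusters of the table (0.0614) and without any mouse other than knockout replicate 1 or control replicate 3 (0.0523 to 0.0885). With the title series as a block, Bbs2, a further BBSome subunit, was called lower as well (-0.22, adjusted p = 0.0384, against 0.317 without the block). Kif17, a kinesin that has been linked to ciliary entry of the olfactory CNG channel, was at 0.04 ± 0.07 and Pacs1, which binds Cngb1, at -0.07 ± 0.12, and neither was called.

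The genes beside each subunit on its chromosome did not share its change as a rule. The 5 protein-coding genes with a cluster on either side were taken from RefSeq (GRCm38.p6). Limma called 6.29% of all clusters lower and 2.1% higher, and no such share was counted at an unadjusted p under 0.05. Around Cnga2 none of 10 was called in limma (4 higher and 0 lower at an unadjusted p under 0.05), and the median change was 0.21. Around Cnga4, 3 of 10 were called, all lower, and all 3 were odorant receptors at one edge of the window, Olfr690 (-1.36 ± 0.18), Olfr691 (-1.49 ± 0.16) and Olfr692 (-0.75 ± 0.17). Fam160a2 (-0.08 ± 0.06) and Gm5901 (0.08 ± 0.14) lie between these receptors and Cnga4, and on the other side Cckbr, a cholecystokinin receptor, was at 0.01 ± 0.06. None of those 3 was called (limma, adjusted p = 0.563, 0.831 and 0.951), although Cnga4 fell further than any of the receptors. Around Cngb1, 1 of 10 was called, Drc7, a subunit of the dynein regulatory complex of motile cilia, which fell by 0.71 ± 0.07 on the log2 scale (limma, adjusted p = 5.09e-05).

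**Figure D4:**
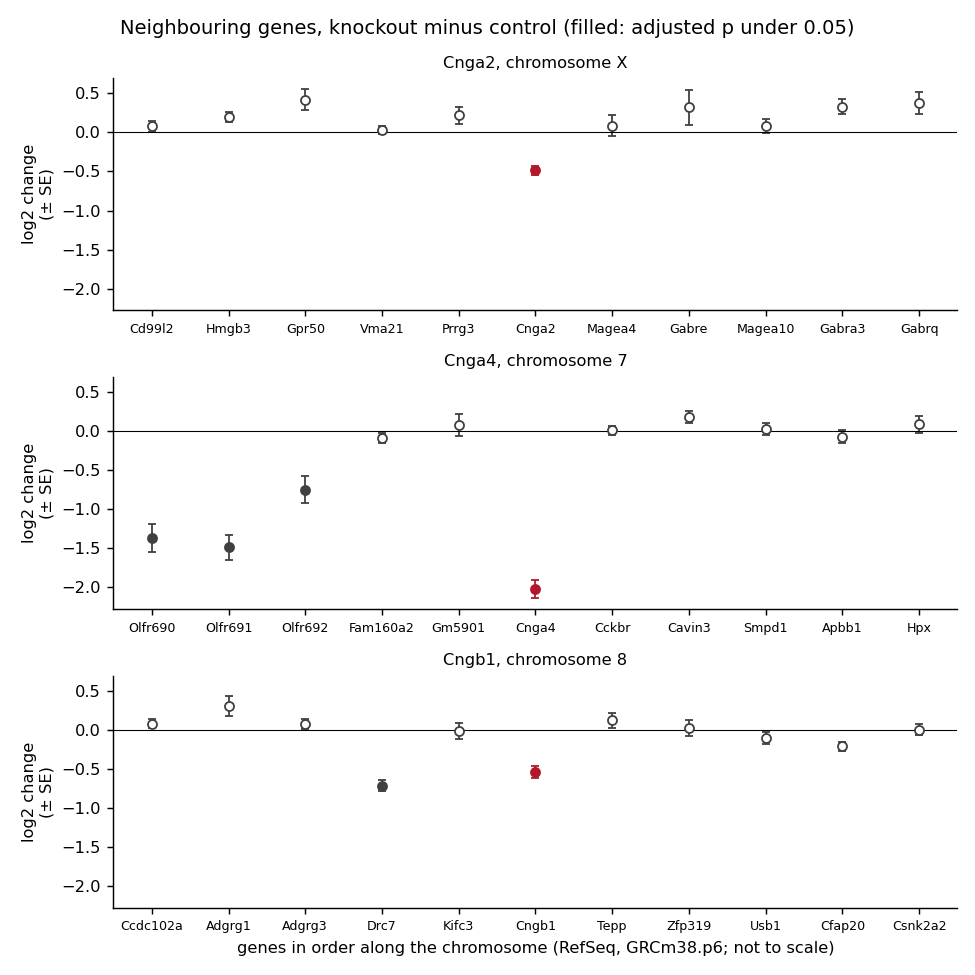
Log2 change, knockout minus control ± SE (y axis), of each channel subunit (red) and of the 5 protein-coding genes with a cluster on either side of it (dark grey), in their order along the chromosome and not to scale; filled points passed an adjusted p of 0.05 in limma. Cnga4 at -2.02 is separated from Olfr690, Olfr691 and Olfr692 by a pair of genes near 0.

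Likeness of expression over the 8 arrays followed the groups. Among 14868 genes with a mean log2 value of at least 7, the genes with the highest Pearson r to Cnga4 were Olfr290 (0.999), Cmip (0.998), Gm11992 (0.998), Cnga2 (0.997) and Ttc8 (0.997). Those nearest to Cnga2 were Dcdc2a (0.998), Olfr5 (0.998), Cnga4 (0.997), Olfr1301 (0.997) and Gm11992 (0.997). Those nearest to Cngb1 were Olfr1018 (0.994), the potassium channel gene Kcnc4 (0.993), Kif3c (0.992), Lpcat4 (0.991) and Paqr9 (0.990), and for it Cnga4 ranked 182 (r = 0.957) and Cnga2 ranked 190 (r = 0.956). Each gene named here was itself called lower in knockouts. After each group's mean was subtracted, which leaves only differences among mice of a group, the nearest genes were others. They were E330012B07Rik, Map7d2, Eef1akmt3, Bmp5 and 2510002D24Rik for Cnga2 (r = 0.978 to 0.986). For Cnga4 they were 5830454E08Rik, Gxylt2, Nup98, Pdia3 and Pglyrp1 (r = 0.965 to 0.988). For Cngb1 they were Kcnab2, Afmid, Bcl6, Ccdc92 and Zfp652 (r = 0.988 to 0.994), of which Kcnab2 alone was called (-0.33, limma, adjusted p = 0.0359). In these residuals Cnga2 and Cnga4 had r = 0.896, Cnga2 and Cngb1 0.487, and Cnga4 and Cngb1 0.477. With 8 arrays and this many genes, values of r this high are descriptions of these mice only.

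**Figure D5:**
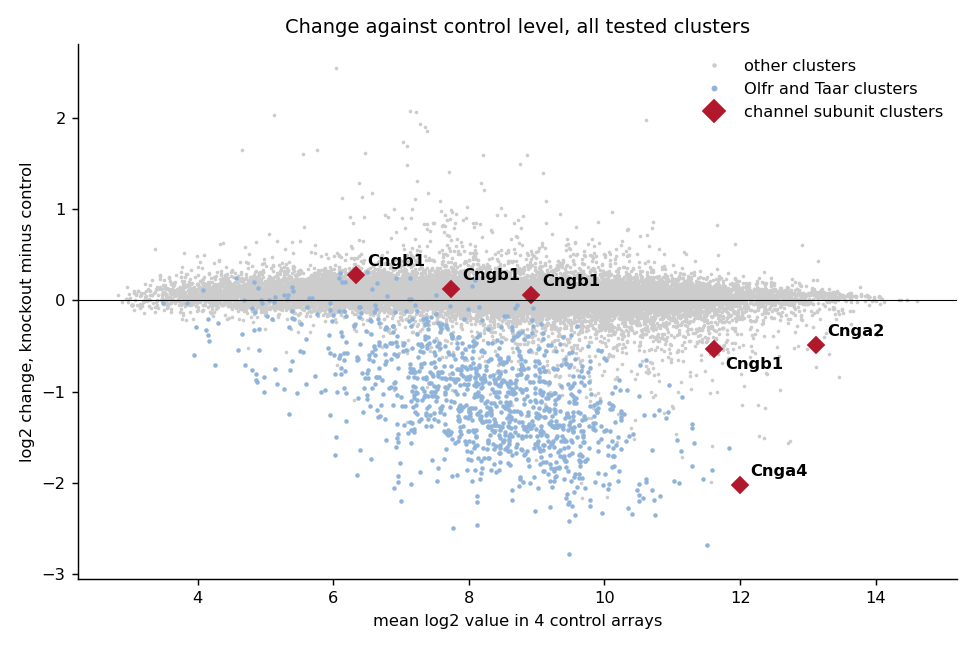
Log2 change, knockout minus control (y axis), against the mean log2 value in the 4 controls (x axis) for the 23410 tested clusters, with odorant and trace amine-associated receptor clusters in blue, all others in grey and the 6 channel subunit clusters as red diamonds. Cnga4 (control level 11.99, change -2.02) lies far below 0 at a high control level, while 3 of the 4 Cngb1 clusters lie at or above 0.

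Markers of other cells of the mucosa were examined beside these results. For comparison, 6.29% of all clusters were called lower and 2.1% higher in limma. By the methods' t-test after adjustment, 1266 of 23410 were lower and 438 higher. No share of all clusters was counted at an unadjusted p under 0.05. Of the 14 mature OSN genes, 12 were called lower and none higher, and their summed signal ran from 15.88 to 15.92 on the log2 scale in knockouts, against 16.30 to 16.31 in controls. Of 8 immature OSN genes, 1 was called lower (Ncam1) and 1 higher (Tubb3), with sums of 14.86 to 14.99 in knockouts, against 14.86 to 14.91 in controls. At an unadjusted p under 0.05 in limma, 2 of them were lower and 2 higher. None of 5 sustentacular, 4 basal and progenitor, 4 macrophage or 3 vomeronasal genes was called in limma or by the methods' t-test (at an unadjusted p under 0.05, 1 basal and 1 macrophage gene were higher), and their medians were 0.057, 0.094, 0.030 and 0.11. Of 4 genes each, 1 was called higher for guanylyl cyclase D neurons (Pde2a, at 1.60 ± 0.11) and for microvillar cells (Coch, at 0.34 ± 0.08), of which the methods' t-test called Pde2a alone. The other genes of both lists were not called. They were Gucy2d (-0.11), Cnga3 (0.098) and Car2 (-0.10), and Trpm5 (-0.024), Ascl3 (-0.019) and Chat (0.016). The list medians were -0.0024 and -0.0015. The guanylyl cyclase D sums ran from 11.61 to 11.95 in knockouts, against 11.25 to 11.57 in controls, and the microvillar sums from 12.49 to 12.67 in knockouts, against 12.20 to 12.38 in controls. The higher sums follow 1 gene of each list, Pde2a (mean 8.85 in controls and 10.45 in knockouts) and Coch (11.66 and 12.01). They are not read as more signal from these cells as a whole. Of 5 genes of respiratory ciliated cells, 2 were called lower, Foxj1 and Tekt1 (Tekt1 alone by the methods' t-test). At an unadjusted p under 0.05 in limma, 3 were lower and 0 higher. The median was -0.37, and sums ran from 11.70 to 11.99 in knockouts, against 12.06 to 12.26 in controls. The calls of Ncam1, Foxj1 and Coch were each lost without one mouse or another (adjusted p up to 0.0969, 0.106 and 0.0621). The part of these cells in the subunit changes was not tested.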

How the data were processed

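Olfactory mucosae of 8 mice were each profiled on 1 Affymetrix Mouse Gene 1.0 ST array from equal amounts of total RNA. The authors deposited log2 expression values per transcript cluster, made with Affymetrix Expression Console, whose version and settings the labels and methods do not state. They ran from 2.35 to 14.6 and were used as deposited, without the rescaling to mature OSN mRNAs that the study applied. Arrays give no counts, so their number limits the precision.

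Groups came from the phenotype labels, and replicate numbers only name mice. The table held 35557 clusters. Gene symbols are those of GEO's platform table, brought up to date by Entrez ID from RefSeq (GRCm38.p6). A single symbol stood beside 21789 clusters, 21698 of them matched by that ID, several beside 1621 and none beside 12147, and the 23410 with any symbol were tested. The brightest cluster stood for a gene with more than 1. Groups were compared in limma 3.58.1 (lmFit, eBayes), R 4.3.3, without covariates and with Benjamini-Hochberg adjustment over all tested clusters, called at an adjusted p under 0.05. Ratios per array were compared by exact two-sided permutation, adjusted over 6 comparisons. Scripts were tested on simulated data. Promoter sequences are RefSeq's, and all 3 genes matched.

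The mature OSN list was Gnal, Adcy3, Ano2, Gng13, Ric8b, Rtp1, Rtp2, Stoml3, Slc17a6, Slc24a4, Pde1c, Pde4a, Umodl1 and Kirrel2, of which 11 are also on the transduction list. Members, lists and tests were chosen with earlier results of these data known. Named were the subunits, Lhx2, Omp, 6 other channel genes, called members of the transduction and ciliary lists, the 5 genes most like each subunit and chromosomal neighbours; genes named beyond these were chosen for their role or after their values were seen. Alternatives were array scaling, quantile normalization, title series as a block, array weights, other cluster sets, an intensity trend, the methods' t-test and leaving out each mouse.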

Additional observations from a re-analysis of the deposited data

Results flagged for a closer look

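Among 30 groups of 4 values examined for a mouse far from the others (the subunit clusters, ratios, Lhx2, Omp and the mature OSN list), 2 stood out by Dixon's criterion at the 95% level, and chance alone marks about 1 in 20 such groups. Both concern Cnga2. Knockout replicate 3 had a Cnga2 value of 12.56, against 12.65 to 12.66 in the other knockouts. Its array also had the lowest median over all tested clusters (8.441). Control replicate 2 had a Cnga2 value of 13.13, against 13.11 to 13.12 in the other controls, a distance of little size because the controls were so close together.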

How the results depend on the processing

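Cnga4 was called lower under all 18 alternatives tried, with changes of -2.09 to -1.57 (adjusted p = 8.88e-07 to 0.000802). Cnga2 was called under 17 of 18 and Cngb1 under 16 of 18. Centred on the mature OSN list, neither was called (-0.032, adjusted p = 0.567, and -0.085, adjusted p = 0.333), since that list itself fell, and the mean of the 4 Cngb1 clusters was at -0.021 (adjusted p = 0.917; chosen after seeing the data). Leaving out each mouse gave -0.50 to -0.46 for Cnga2, -2.09 to -1.90 for Cnga4 and -0.60 to -0.50 for Cngb1, all called. Cngb1 cluster 10580852 ran from -0.011 to 0.16 when each mouse was left out, with -0.011 without control replicate 2.

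Leaving out each mouse in turn, Cnga4 minus Cnga2 ran from -1.60 to -1.44, Cnga4 minus Cngb1 from -1.55 to -1.397, Cngb1 minus Cnga2 from -0.12 to -0.021, and Cnga4, Cnga2 and Cngb1 relative to the mature OSN list from -1.65 to -1.45, -0.044 to -0.011 and -0.16 to -0.045. In these, adjusted p fell below 0.05 only without control replicate 3, for the 5 comparisons other than Cnga2 relative to the list. More comparisons reached the smallest exact p there, which lowered the adjusted p of all 5. Without Gng13 in the list, Cnga4 was at -1.61 and Cnga2 at -0.074 (adjusted p = 0.0429 each). Relative to the list median, Cnga2 was at 0.12 and Cngb1 at 0.065. By limma on the ratios, also chosen after seeing the data, -1.54, -1.49 and -1.57 for the 3 comparisons of Cnga4 passed. With the mean of the 4 Cngb1 clusters, a further such choice, Cngb1 minus Cnga2 was 0.47, Cnga4 minus Cngb1 -2.004 and Cngb1 relative to the list 0.43. Permuting within title series allows no p below 0.0833.

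Of all clusters, 1473 were called lower and 492 higher (the methods' t-test at an unadjusted p under 0.01 gave 1532 and 774, and after Benjamini-Hochberg 1266 and 438). The counts were 1342 and 1028 after array median centring, 1715 and 975 when title series was a block, 1728 and 1086 with array weights, and 924 and 21250 centred on the mature OSN list, which moved the median change of all clusters to 0.50. Leaving out 1 mouse gave 1302 to 1421 lower and 304 to 563 higher, with 304 without control replicate 1 and 318 without knockout replicate 4. The labels give no replicate numbers that pair mice, so blocking was by title series, and the labels do not say whether these are litters.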
